A study of Mus musculus with 9 samples.

Results

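Collagen genes were read in endothelial cells of the mouse retina through every probe set that the platform annotation pairs with a single symbol of a collagen chain, a lysyl hydroxylase (Plod), a prolyl 4-hydroxylase alpha subunit (P4ha), a lysyl oxidase (Lox, Loxl), the chaperone gene Serpinh1 or the processing enhancer gene Pcolce. Col4a1 and Col4a2, the main basement membrane chains, were left out of the set by definition. The rule gave 91 probe sets of 48 genes, out of 36701 probe sets of 15964 genes on the arrays, with 53, 17 and 21 of them on array designs A, B and C. By type they were 21 probe sets of 10 fibrillar chains, 9 of 7 network-forming chains, 38 of 21 other chains, and 23 of 10 enzyme and chaperone genes.

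All 9 arrays carried RNA of a single condition. Pups homozygous for a Tie2-GFP transgene, in which the Tie2 promoter drives green fluorescent protein, were given the PDGFRb-neutralizing antibody APB5 into the peritoneum from postnatal day 0 to day 7, and GFP-positive retinal cells were sorted at day 8 from pooled, enzymatically dissociated retinas. Tie2 is active in endothelium and also in some blood cells. Each of the 3 designs of the Affymetrix MG-U74v2 series was hybridised in 3 replicates, and no untreated animals were analysed here, so the effect of the antibody on collagen genes cannot be read from these arrays. Whether each replicate had its own pool of mice is not stated in the labels, and p-values and errors cover array-to-array spread only, possibly of technical origin.

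Collagens are built from alpha chains that wind into a triple helix. Fibrillar types assemble into the cross-banded fibrils of connective tissue, network types into sheets, and the remaining types decorate fibrils, span membranes or sit in basement membranes. Inside the cell, prolyl and lysyl hydroxylases modify the chains and the chaperone encoded by Serpinh1 (HSP47) holds the folded helix, and outside it lysyl oxidases cross-link the assembled molecules. In retinal vessels the collagen of the basement membrane is made by endothelial cells together with pericytes and astrocytes, whereas fibrillar collagen is a typical product of fibroblasts and of the outer vessel wall.

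Each probe set was placed against its own array in linear intensity units. The floor was the 40th percentile of all probe sets of an array, 33.5 to 35.1 on designs A and B and 25.3 to 25.4 on design C, and a probe set was called above or below it by limma's moderated test on log2 intensity with the Benjamini-Hochberg adjusted p under 0.05. A higher level, the upper quartile (75th percentile) of the array, was tested the same way, and on design A a further level was the 90th percentile of the probe sets of genes specific to unrelated tissues such as liver, pancreas, testis and pituitary (tissue-foreign level, 58.5 to 66.8). Of 66 tissue-foreign probe sets on the 3 designs, 23 were themselves called above the floor (34.8%), so a call above it does not by itself show expression. On design C, where 15 such probe sets lie, their 90th percentile was 92.6 to 107, higher than the upper quartile of 64.7 to 66.7, and 3 of them were called above the upper quartile. Position is also given as a percentile of the array. Probes differ in how well they hybridise, so these positions are not an order of transcript amounts between genes, and a transcript may be present where its probe set reads low. Fewer cells that express a gene and less RNA per cell cannot be told apart in sorted bulk RNA.

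Collagen chains had 27 of 68 probe sets called above the floor (39.7%), against 54.0% of all probe sets on the arrays, 9 above the upper quartile (13.2%), against 21.3%, and a median percentile of 38.5. The enzymes and chaperone, with 13 of 23 above the floor (56.5%), were near the share of all probe sets, and on design A 5 of their 11 probe sets were below the floor. Of the 91 member probe sets, 40 were called above the floor (44.0%), against 54.0% of all probe sets, and 34 were called below it (37.4%), against 34.0% of all. By design, design A had 24 of its 53 members above the floor (45.3%, against 54.2% of all its probe sets). Design B had 7 of 17 (41.2%, against 54.0%) and design C 9 of 21 (42.9%, against 53.9%). By gene, 26 of 48 had at least 1 probe set above the floor (54.2%), against 70.2% of all genes. Above the upper quartile stood 15 members (16.5%), against 21.3% of all probe sets. On design A, 13 of 53 exceeded the tissue-foreign level (24.5%), against 32.5% of all probe sets.

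Fibrillar chains had 9 of 21 probe sets above the floor (42.9%) and 3 above the upper quartile, with a median of 44.3 over their mean percentiles (41.4 to 45.3 in single replicates). Network chains, without Col4a1 and Col4a2, had 2 of 9 above the floor (22.2%) and a median of 36.5 (34.1 to 35.2 in single replicates). The left-out chains lay at mean percentiles of 99.4 to 99.9, so the network values hold only for the set as defined. All 9 network probe sets were called below the upper quartile, against 70.9% of all probe sets. Other chains had 16 of 38 above the floor (42.1%), 6 above the upper quartile and a median of 39.2 (38.7 to 40.5). Enzymes and the chaperone had 13 of 23 above the floor (56.5%), 6 above the upper quartile (26.1%) and a median of 61.8 (59.0 to 63.4). Over all probe sets the median lies at 50.0 by construction. The types were compared by these counts and medians alone, because probe sets of different genes are not replicates.

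**Figure D1:**
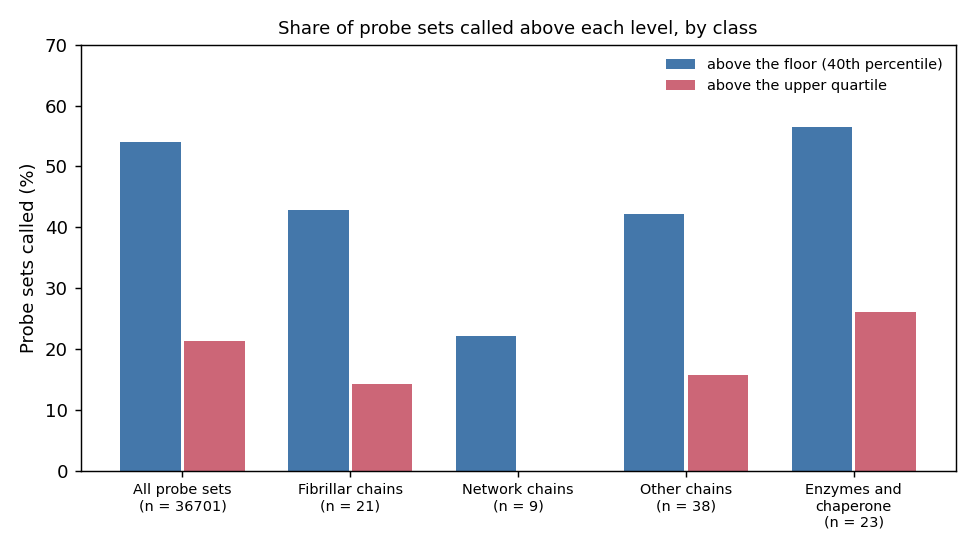
Share of probe sets (percent, vertical axis) called above the floor (blue) and above the upper quartile (red) by limma, for all 36701 probe sets and for each type of member. Network chains, without Col4a1 and Col4a2, have 22.2% above the floor and none above the upper quartile. The enzymes and chaperone, at 56.5% and 26.1%, lie beside the shares of all probe sets, 54.0% and 21.3%.

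The highest and lowest members were a basement membrane chain and the chaperone at the upper end, and chains of fibrillar types III and V at the lower end. The start regions of Serpinh1, of Col18a1 (which has a pair of annotated starts) and of Col3a1 are shown because these genes stand at the ends of the range. Each runs 5′ to 3′ on the gene's strand from 250 bases before the start to 50 after it, from RefSeq on GRCm38.p6. Capitals mark matches on either strand to the TATA box TATAAA, the CCAAT box, the GC box GGGCGG or GAANNTTC, a minimal pair of heat shock element units.
Serpinh1 (chr7:99353190-99353489, minus strand): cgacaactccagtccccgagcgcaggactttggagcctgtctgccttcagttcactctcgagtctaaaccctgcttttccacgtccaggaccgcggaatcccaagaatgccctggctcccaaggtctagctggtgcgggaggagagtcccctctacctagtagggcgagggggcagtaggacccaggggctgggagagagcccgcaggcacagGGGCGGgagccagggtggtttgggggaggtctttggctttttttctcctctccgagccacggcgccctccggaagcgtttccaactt
Col18a1, upstream start (chr10:77166481-77166780, minus strand): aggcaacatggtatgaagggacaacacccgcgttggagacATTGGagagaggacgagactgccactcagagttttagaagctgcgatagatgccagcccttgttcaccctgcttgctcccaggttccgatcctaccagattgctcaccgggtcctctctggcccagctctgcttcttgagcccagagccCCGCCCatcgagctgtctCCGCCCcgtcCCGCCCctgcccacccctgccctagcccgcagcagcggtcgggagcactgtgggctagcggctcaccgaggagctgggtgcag
Col18a1, downstream start (chr10:77113656-77113955, minus strand): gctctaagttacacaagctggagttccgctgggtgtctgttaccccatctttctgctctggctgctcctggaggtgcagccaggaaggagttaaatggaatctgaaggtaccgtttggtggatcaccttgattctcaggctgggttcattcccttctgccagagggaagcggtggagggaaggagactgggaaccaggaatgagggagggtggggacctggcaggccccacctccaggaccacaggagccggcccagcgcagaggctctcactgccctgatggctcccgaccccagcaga
Col3a1 (chr1:45311288-45311587, plus strand): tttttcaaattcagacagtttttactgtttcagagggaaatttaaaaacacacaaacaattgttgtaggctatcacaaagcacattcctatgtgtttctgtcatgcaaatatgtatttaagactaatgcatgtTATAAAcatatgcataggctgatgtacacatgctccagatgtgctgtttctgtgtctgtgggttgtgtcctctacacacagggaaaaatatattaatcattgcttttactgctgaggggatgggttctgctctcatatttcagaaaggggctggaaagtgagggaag

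The Serpinh1 window held GGGCGG once, at position -37. The upstream Col18a1 window held it 3 times on the opposite strand, at -61, -43 and -33, and CCAAT once, at -210, whereas the downstream window held none of the 4 motifs. The Col3a1 window held TATAAA at -117 and no GGGCGG, and its GC content was 37.7%, the lowest among the member windows and against 62.3% for Serpinh1. Windows were found for 35 of the 48 genes, 38 in all. GGGCGG occurred in 25 of these 38 (65.8%), against 35.7% of all 32851 windows, TATAAA in 7 (18.4%, against 13.6%), CCAAT in 12 (31.6%, against 37.4%) and GAANNTTC in 2 (5.26%, against 7.86%). The median GC content was 60.2% for member windows and 52.7% for all windows, and the motif shares were not adjusted for it. For genes with a probe set above the upper quartile it was 61.0% (53.3% to 67.7%). For genes with none above the floor it was 56.7% (37.7% to 74.3%), so the ranges overlap. The share with GGGCGG was 6 of 8 windows for genes with a probe set above the upper quartile and 9 of 13 for genes with none above the floor. These matches describe letters and not bound sites.

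Among fibrillar chains, Col11a2, a chain of the minor fibrillar type XI of cartilage, was high on both designs that carry it. It read 160.4, 156 and 162 on design A, 2.22 ± 0.071 log2 units above the floor (SE, limma, adjusted p = 3.52e-07), and 324, 217 and 258 on design C, 3.37 ± 0.12 above it (adjusted p = 2.49e-06). All 6 of these readings exceeded the upper quartile of their array. Col11a1, another chain of type XI, read 11.1, 11.6 and 12.4, at percentile 7.98 ± 0.39, and was called below the floor (adjusted p = 1.73e-06). These are different probe sets of different genes, so the readings give no ratio of the chains. Col27a1, a fibrillar chain of type XXVII, had both its probe sets above the floor on design B, at 82.1, 108 and 99.4 and at 59.6, 63.4 and 63.1. These lay at percentiles 76.1 ± 4.2 and 63.0 ± 1.2.

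The chains of type I, the main collagen of fibroblasts, split by probe set. One Col1a1 probe set read 52.8, 54.9 and 58.7 and was called above the floor by 0.70 ± 0.072 log2 units (SE, limma, adjusted p = 9.15e-05). It did not exceed the tissue-foreign level, from which it differed by -0.17 ± 0.090 (adjusted p = 0.11). The other read 20.3, 20.1 and 28.3 and was called below the floor. For Col1a2, a probe set picked under relaxed selection rules, as its name marks, read 129, 74.6 and 132, with replicate 2 apart from the other two, and was above the floor. The plain one read 21.3, 19.9 and 23.4 and was below it. Without replicate 2, the first of these Col1a2 probe sets was also called above the upper quartile (adjusted p = 0.0023). It exceeded the tissue-foreign level by 0.80 ± 0.16 (adjusted p = 0.0012), and no plain probe set of a type I chain was called above that level.

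Col3a1, the chain of type III that accompanies type I in vessel walls, had no probe set called above the floor. Its readings were 5.28, 5.19 and 8.85 for one probe set and 4.64, 6.30 and 5.66 for another, at percentiles 2.73 ± 1.6 and 1.96 ± 0.48. Both are among the lowest values of all members, more than 2 log2 units below the floor on average. Its remaining probe set read 40.6, 41.7 and 36.04, which limma did not separate from the floor (difference 0.20 ± 0.082, adjusted p = 0.053). That call was gained without replicate 3 (adjusted p = 0.031).

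Type V chains, which set the diameter of type I fibrils, were also mixed. Col5a2 read 111, 176 and 107 on design A, above the upper quartile by 0.36 ± 0.14 log2 units (SE, limma, adjusted p = 0.034). Replicate 2 was the high array, and without it the difference was 0.14 and not called (adjusted p = 0.23). On design B the same gene read 3.37, 6.02 and 7.09, the lowest percentile of any member (1.56 ± 1.1), and on design C it read 13.7, 8.16 and 9.26, and both were called below the floor. Col5a1 had a single probe set above the floor among 4, at 41.7, 53.5 and 44.7 on design A. Another on that design, at 38.5, 36.6 and 35.1, was not separated from the floor, and those on design C, at 14.4, 16.5 and 17.8 and at 16, 16 and 17.04, were below it. Col5a3 read 49.5, 37.5 and 46.1 on design B, above the floor by 0.37 ± 0.095. Col2a1, the cartilage and vitreous chain, read 36.3, 42.3 and 36 and was not separated from it (adjusted p = 0.12).

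Among the fibrillar, network and other classes, the network chains kept in the set had the lowest share above the floor. The fibril-associated chains within the other class had a lower one (14.3%). Besides the excluded Col4a1 and Col4a2, which read between 1429.9 and 3509.8 on every array that carries them, type IV has the chains a3 to a6, which form the networks of kidney, lens and other specialised basement membranes. Col4a4 read 46.6, 51.5 and 51.6 on design A, 0.54 ± 0.072 log2 units above the floor (SE, limma, adjusted p = 0.000359), but 24.9, 23.4 and 23.01 on design C, not separated from it. It fell short of the tissue-foreign level on design A by -0.32 ± 0.092 log2 units (adjusted p = 0.0096). Col4a3 read 29.4, 26.7 and 31.0 on design A and 29.1, 29.2 and 36.4 on design B, and the first of these was called below the floor with all 3 arrays but not without replicate 1 or 2 (adjusted p = 0.064 and 0.099).

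Col4a5 (19.98, 17.1 and 19.6) and Col4a6 (23.2, 21.4 and 23.3) were called below the floor. These genes lie head to head on the X chromosome. Col8a1, a short chain found under the endothelium of large vessels and the cornea, read 28.5, 35.9 and 30.2, at the floor within error. Its partner Col8a2 read 51.4, 56.2 and 52.6, above the floor by 0.64 ± 0.077 (adjusted p = 0.000141). Col10a1, a chain of growth plate cartilage, read 16.8, 17.3 and 18.2 and was the lowest network probe set, at percentile 16.1 ± 0.38. On design A all 5 network probe sets were called below the tissue-foreign level.

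**Figure D2:**
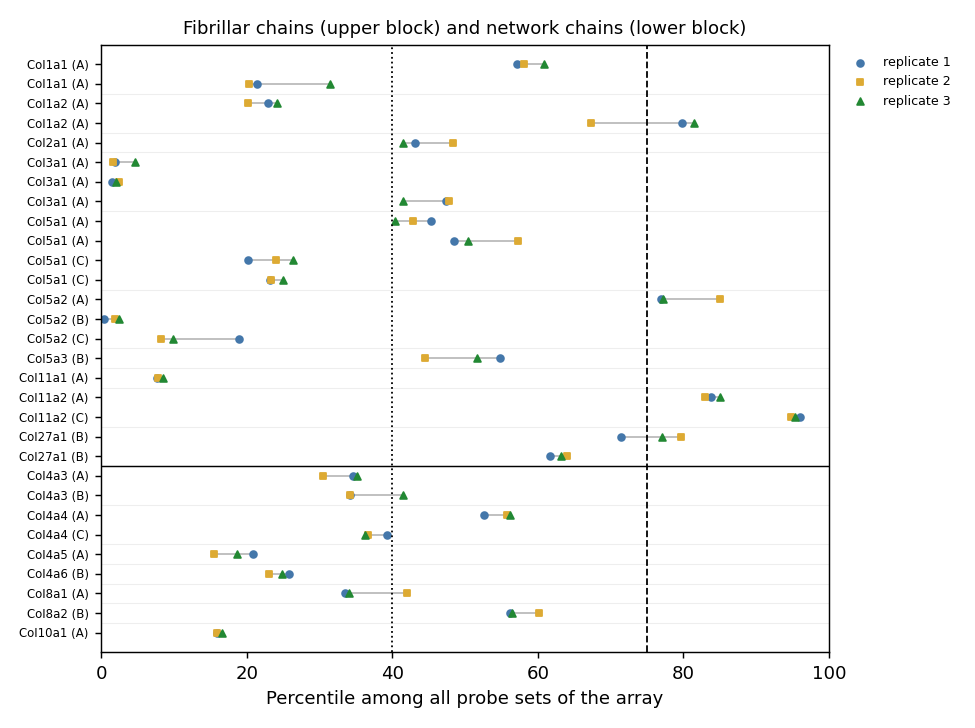
Percentile of each probe set of a fibrillar chain (above the black line) or network chain (below it) among all probe sets of its array, with a symbol per replicate and the array design in brackets. The dotted line is the floor and the dashed line the upper quartile. Col11a2 lies beyond the upper quartile on designs A and C, and Col3a1 and Col5a2 reach the lowest positions. No network chain shown reaches the upper quartile, and Col4a1 and Col4a2 are not among those shown.

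The multiplexins, basement membrane collagens with an interrupted helix, included the highest collagen member. Col18a1, whose C-terminal fragment is endostatin, had all 5 of its probe sets on design A above the floor. They read 995, 1104 and 1020.2, then 898, 1010 and 821, then 147, 169.8 and 128, then 122, 137 and 98.8, and last 39.4, 44.5 and 42.4. The first lay at percentile 98.3 ± 0.11 and stood 4.92 ± 0.074 log2 units above the floor (SE, limma, adjusted p = 3.31e-08), and the second stood 4.73 ± 0.088 above it. The lowest was designed on the same source sequence as the highest, yet stood 0.30 ± 0.074 above the floor (adjusted p = 0.0075) and -0.56 ± 0.094 from the tissue-foreign level. The one at 122, 137 and 98.8 was above the upper quartile by 0.24 (adjusted p = 0.042) and was not called without replicate 1 or without replicate 2 (adjusted p = 0.14 and 0.21). Col15a1, the other multiplexin, read 48.1, 66.9 and 53.5, above the floor by 0.70 ± 0.10 (adjusted p = 0.000613) and not separated from the tissue-foreign level (difference -0.16 ± 0.11, adjusted p = 0.21).

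Type VI chains form beaded microfilaments around cells and had 5 of 9 probe sets above the floor (55.6%), a share near the 54.0% of all probe sets. Col6a3 was above it on both designs, with 62.4, 67.7 and 57.9 on design A and 73.0, 67.8 and 79.9 on design C. Col6a1 read 70.6, 73.6 and 74.1 for its plain probe set, which exceeded the floor by 1.09 ± 0.070 log2 units and the tissue-foreign level by 0.23 ± 0.092 (adjusted p = 0.043). Its second probe set, named as one that can match a family of sequences, read 9.85, 8.69 and 10.6, at percentile 5.75 ± 1.0, the lowest of the other chains. Col6a2 read 31.4, 32.4 and 38.8, at the floor within error. The 3 obligate partners of the common type VI molecule, a1, a2 and a3, therefore gave calls above the floor for a1 and a3 and none for a2. Col6a4, a later-described type VI chain, read 109, 73.5 and 86.8 on design C, above the upper quartile by 0.43 ± 0.11 (adjusted p = 0.010) but below the design C tissue-foreign 90th percentile in replicates 2 and 3, and a second probe set read 71.9, 75.3 and 67.7. Another, built on an incomplete set of probes, read 7.63, 6.39 and 7.41. Col6a6 read 29.3, 32.6 and 25.6 and was not separated from the floor (adjusted p = 0.051), though below it without replicate 2 (adjusted p = 0.022).

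Among the transmembrane collagens, Col23a1 differed between its probe sets. It read 525, 258 and 344 on design C, 3.83 ± 0.19 log2 units above the floor (SE, limma, adjusted p = 7.74e-06), but 19.98, 23.6 and 24.3 on design B, called below it. Its design C readings spanned 1.02 log2 units, so its level is the least closely replicated among the high members, although each reading exceeded the upper quartile. Col13a1 gave 73.2, 74.8 and 61.7 for one probe set and 25.6, 22.98 and 26.2 for another from the same source sequence, on opposite sides of the floor. Col17a1, the hemidesmosome collagen, read 33.9, 35.4 and 29.9, at the floor within error. Both probe sets of the neuronal collagen gene Col25a1 were below it, between 8.94 and 11.9.

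Fibril-associated collagens, which coat fibrils without forming them, were low. Of 14 probe sets of 8 genes, 2 were called above the floor (14.3%, against 54.0% of all) and 8 below it (57.1%, against 34.0%), and the median percentile was 25.6. All 14 were called below the upper quartile, against 70.9% of all probe sets. The 2 above the floor were of type IX, a collagen of cartilage and vitreous: Col9a1 read 71.6, 79.3 and 77.9 and Col9a2 read 62.3, 63.8 and 65.1 on design A. Col9a1 exceeded the tissue-foreign level by 0.29 ± 0.092 log2 units (limma, adjusted p = 0.015), whereas Col9a2 did not (adjusted p = 0.72). A second Col9a1 probe set on design B read 11.99, 13.3 and 11.9, and the 3 of Col9a3 ranged from 7.21 to 36.7. Col12a1 and Col14a1, which associate with type I fibrils, ranged from 20.8 to 34.3 over 5 probe sets, with none above the floor. Col16a1 read 42.8, 33.2 and 38.1 and was not separated from the floor, and Col19a1 and Col22a1 were below it, between 11.3 and 18.8.

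Col7a1, the anchoring fibril chain of skin, read 85.7, 98.0 and 87.8, at percentile 72.7 ± 1.4, and exceeded the tissue-foreign level by 0.54 ± 0.098 log2 units (limma, adjusted p = 0.000717). Col26a1 read 28.4, 24.04 and 31.7 and was called below the floor, though not without replicate 2 (adjusted p = 0.097).

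**Figure D3:**
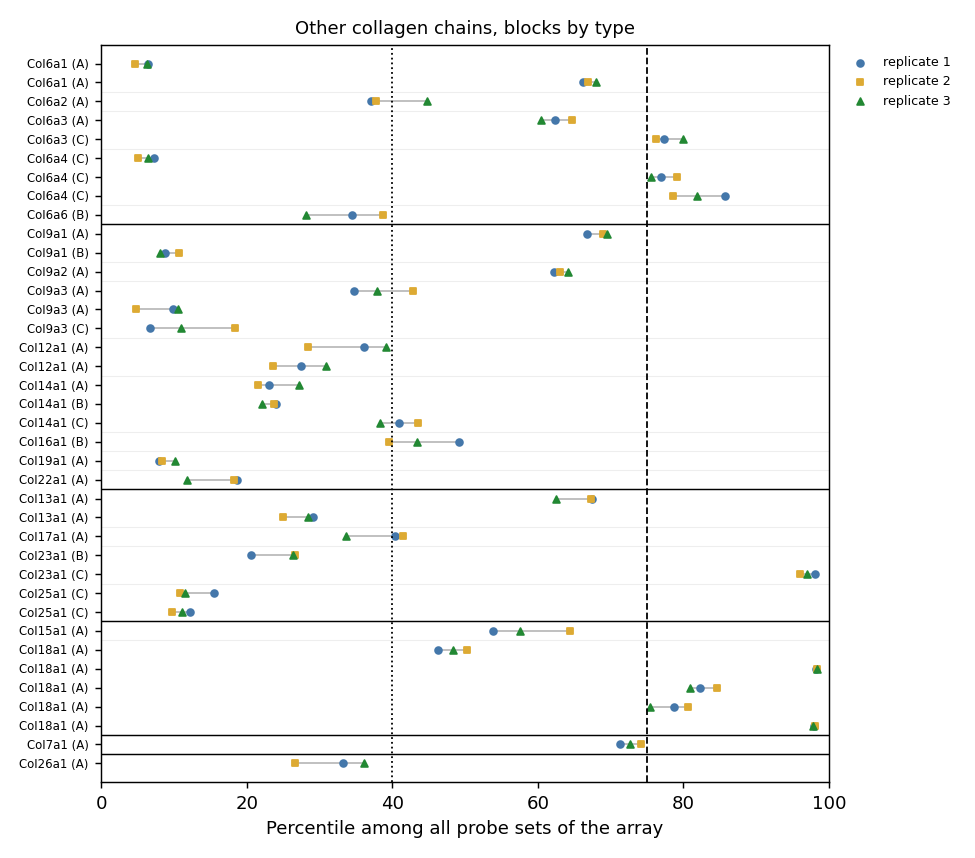
Percentile of each probe set of the other chains among all probe sets of its array, with a symbol per replicate, the array design in brackets and black lines between types (from the top: beaded filament, fibril-associated, transmembrane, multiplexin, anchoring fibril and Col26a1). The dotted line is the floor and the dashed line the upper quartile; a pair of Col18a1 probe sets and 1 Col23a1 probe set lie beyond percentile 95, and no fibril-associated probe set reaches the upper quartile.

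Among the enzyme and chaperone members, Serpinh1 stood highest on its array. It read 769, 1062 and 853 on design A, at percentile 97.9 ± 0.40, and stood 4.70 ± 0.10 log2 units above the floor (SE, limma, adjusted p = 9.31e-08). Replicate 2 was the high array, and all 3 readings were far beyond the upper quartile.

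Lysyl hydroxylases, which make the hydroxylysine used for cross-links and for sugar attachment, had 8 of 11 probe sets above the floor (72.7%, against 54.0% of all) and 5 above the upper quartile (45.5%, against 21.3%). These 11 come from 3 genes, 6 of them from Plod1. Plod1 was above the floor with 5 of its 6 probe sets. It read 131, 175 and 136 on design B and 179, 178 and 138, as well as 106, 102 and 99.3, on design C, and these 3 probe sets were above the upper quartile. The last of them did not exceed the design C tissue-foreign 90th percentile in replicate 1 (107). A further Plod1 probe set from the same source sequence as the strongest one read 50.1, 46.0 and 47.3, above the floor and below the upper quartile. The design B probe set marked as matching a sequence family read 56.5, 68.6 and 56.2. The exception, built on an incomplete probe set, read 23.4, 21.8 and 24.8 and was not separated from the floor (adjusted p = 0.17).

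Plod2, the enzyme that hydroxylates the telopeptides of fibrillar chains, read 121, 131 and 130.3 on design B, 1.90 ± 0.074 log2 units above the floor (SE, limma, adjusted p = 4.20e-07). Its 3 readings lay within 0.11 log2 units of each other. Plod3, which also has glycosyltransferase activity and is needed for type IV collagen, split by probe set. It read 128, 147 and 108 on design A and 65.7, 63.9 and 75.8 on design C, both above the floor, but 20.1, 22.4 and 24.1 and 17.6, 16.96 and 17.8 for the other probe sets on design A, both below it. The Plod3 gene model overlaps Znhit1, and 6 member genes in all overlap another protein-coding gene. The others are Col4a3 and Col4a4 (each other), Col9a3 (Tcfl5), Loxl3 (Htra2) and Col10a1 (Nt5dc1). The strand and place of each probe set were not tested.

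The alpha subunits of prolyl 4-hydroxylase, which stabilises the helix, were intermediate. P4ha1 read 68.7, 88.0 and 65.5 on design A, 1.10 ± 0.10 log2 units above the floor (SE, limma, adjusted p = 5.72e-05). The design B readings of 13.6, 15.7 and 14.7 were below the floor, and design C gave 24.4, 33.3 and 31.0, not separated from it with all 3 arrays (adjusted p = 0.11) and above it without replicate 1 (adjusted p = 0.020). P4ha2 read 69.2, 64.8 and 82.3 and, with its plain probe set, 45.2, 48.7 and 45.3, both above the floor. On design A the P4ha1 probe set and the stronger P4ha2 one were not separated from the tissue-foreign level (differences 0.24 ± 0.12 and 0.21 ± 0.096, adjusted p = 0.086 and 0.069), and the plain P4ha2 one was below it (-0.42 ± 0.096). All 5 probe sets on the 3 designs were called below the upper quartile, as were 70.9% of all probe sets.

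Lysyl oxidases, the extracellular cross-linking enzymes, were the lowest of the enzyme groups. None of the 5 probe sets of Lox, Loxl1 and Loxl3 was called above the floor by limma, at an unadjusted p under 0.05, or on all 3 arrays. Lox read 14.5, 16.5 and 12.7 for one probe set and 27.9, 27.5 and 27.6 for the other, both called below the floor, by -1.24 ± 0.097 and -0.31 ± 0.071 log2 units (SE, limma, adjusted p = 2.17e-05 and 0.0056). Loxl1 read 15.3, 20.2 and 16.5 on design A, below the floor, and 24.6, 22.6 and 24.1 on design C, not separated from it. Loxl3 read 34.3, 30.5 and 37.2 on design B and lay at the floor (difference -0.014 ± 0.080). Pcolce, a secreted enhancer of procollagen C-proteinase, read 97.2, 92.9 and 107, above the tissue-foreign level by 0.67 ± 0.092 (adjusted p = 0.000112) and at the upper quartile within error.

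**Figure D4:**
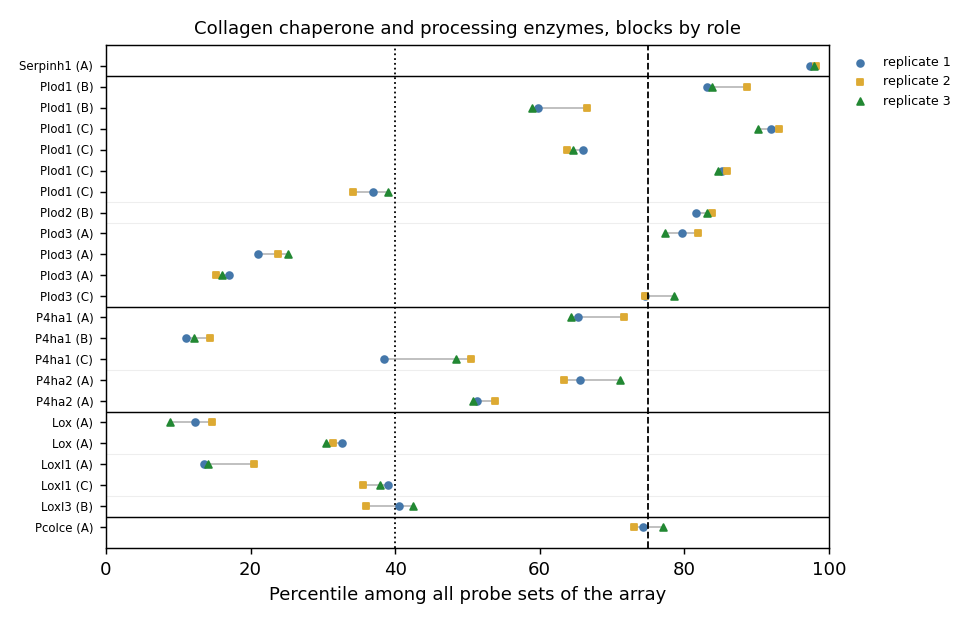
Percentile of each probe set of the chaperone and processing enzymes among all probe sets of its array, with a symbol per replicate, the array design in brackets and black lines between roles. The dotted line is the floor and the dashed line the upper quartile; Serpinh1 lies at percentile 97.9, 5 lysyl hydroxylase probe sets lie beyond the upper quartile, and no lysyl oxidase probe set was called above the floor.

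Of the 26 member genes with several probe sets, 11 had calls on both sides of the floor (42.3%), a share near that of all genes with several probe sets (3440 of 7645). The gap between the highest and lowest mean percentile was 78.2 points for Col5a2, 75.8 for Col6a4, 72.5 for Col23a1, 63.5 for Plod3, 61.3 for Col6a1, 59.2 for Col9a1, 55.1 for Plod1, 54.5 for P4ha1 and 53.8 for Col1a2, against gaps of 1.62 for Col25a1 and 3.20 for Col4a3. Replicates of a probe set were far closer, with a median SD of 0.14 log2 units for members and 0.13 for all probe sets, and 2 of 91 members spanned more than 1 log2 unit between replicates (Col23a1 on design C and Col5a2 on design B). The 11 genes with calls on both sides were Col1a1, Col1a2, Col5a1, Col5a2, Col6a1, Col6a4, Col9a1, Col13a1, Col23a1, P4ha1 and Plod3. Statements on these 11 genes therefore hold for the probe set named and not for the gene. The same limit applies to other genes with wide gaps, such as Plod1, Col18a1 (50.0 points) and Col3a1 (43.6 points). Of the 91 probe sets, 68 have plain names and 23 carry a mark in their names for shared or family-wide matches, relaxed rules, incomplete probes or common groups. The share above the floor was 42.6% for plain and 47.8% for marked probe sets.

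**Figure D5:**
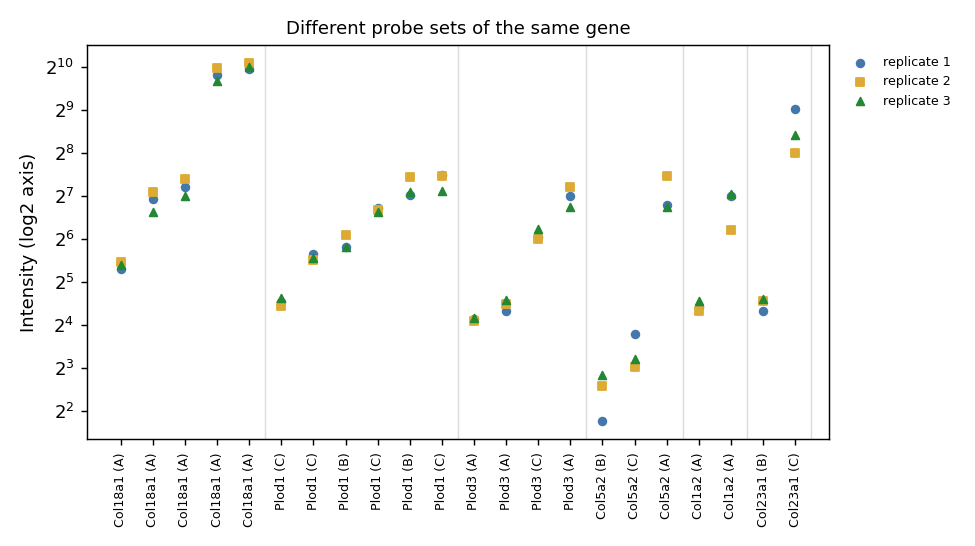
Intensity on a log2 axis of every probe set of 6 member genes, with a symbol per replicate and the array design in brackets, ordered within a gene by mean. Replicates of a probe set lie close together, whereas probe sets of Col18a1 span from about 39.4 to 1104 and those of Col5a2 from 3.37 to 176.

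Replicates also differed slightly as arrays. On design A, 3 of 53 members had their highest reading in replicate 1 (5.66%), against 25.6% of all probe sets. Members called above the floor read highest in replicate 2 for 16 of 24 on design A (66.7%, against 46.9% of all probe sets above the floor there). The same held for 6 of 7 on design B (85.7%, against 28.4%), but for 1 of 9 on design C (11.1%, against 29.2%), where 6 were highest in replicate 1. The median deviation of these members in replicate 2 on designs A, B and C was 0.095, 0.075 and -0.096 log2 units. For all probe sets above the floor it was 0.043, -0.018 and -0.015. The labels do not say whether equal replicate numbers on different designs share an RNA sample.

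Other genes of collagen biosynthesis were read from a separate list of folding, secretion and processing partners. Of 22 measured genes, 17 had a probe set above the floor (77.3%) and 10 above the upper quartile (45.5%), against 70.2% and 34.1% of all genes. Of their 36 probe sets 21 were above the floor (58.3%), against 54.0% of all. Ppib, the prolyl isomerase of the 3-hydroxylation complex, read 347, 465 and 384, and Crtap, its scaffold, read 504, 656 and 679.9. The 3-hydroxylase genes P3h1 (67.2, 73.1 and 66.8) and P3h2 (105, 88.3 and 84.0) were above the floor on design B, and P3h3 (32.1, 33.0 and 27.7) was not. Colgalt1, which puts galactose on hydroxylysine, read 356, 413 and 362 on design A, whereas Colgalt2 read 13.98, 18.3 and 15.4 on design B. Bmp1, the procollagen C-proteinase, was above the floor with 2 of 3 probe sets, the stronger at 125, 131 and 126, and Pcolce2, a relative of Pcolce, was below it with both. P4hb, the beta subunit shared by the prolyl 4-hydroxylases, read 321, 249.5 and 275 for a probe set picked under relaxed rules and 15.5, 19.5 and 13.1 for the plain one.

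Collagen receptors and fibril-organising proteins were read from further lists. Of 9 receptor genes, 4 had a probe set above the floor (44.4%, against 70.2% of all genes), led by the integrin chain Itgb1 (2464, 2549 and 2702 on design A for a sequence-family probe set) and its collagen-binding partner Itga1 (266, 269 and 265 for an incomplete probe set on design C, and 27.5, 26.5 and 28.3 for the plain one). The collagen receptor kinase genes Ddr1 (12.5, 12.2 and 10.9) and Ddr2 (32.4, 35.9 and 30.5) were below the floor and at it. Of 10 genes for fibril-organising proteins, 5 had a probe set above the floor (50.0%, against the same 70.2%). The small proteoglycan gene Bgn was above the upper quartile with all 3 probe sets, the strongest at 861, 1336 and 1123 on design C, and replicate 1 was its lowest array on both designs. Dcn (18.02, 21.2 and 23.7) and Lum (10.4, 11.9 and 14.2), proteoglycan genes of fibroblasts, were below the floor.

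Markers of the cells that make fibrillar collagen were read beside these values. Of 26 probe sets of 15 fibroblast genes, 8 were above the floor (30.8%, against 34.8% of tissue-foreign probe sets) and 1, of Mfap5, above the upper quartile, and their summed intensity on design A was 813 to 841. Of 26 probe sets of 16 mural cell genes, 11 were above the floor (42.3%). Above the upper quartile stood 1 each of Mcam (471, 463 and 369) and Mylk (837, 370 and 787). The mural sum on design A was 1348 to 1868 with both of these included, and Pdgfrb itself lay at the floor (34.4, 25.5 and 40.7). Of 32 probe sets of 17 endothelial genes, 27 were above the floor (84.4%) and 22 above the upper quartile, with a sum of 12831 to 15113. The tissue-foreign sum on design A was 1593 to 1688. These sums cover different numbers of probe sets per list and give no ratio of cell types. The share above the floor was 44.4% for myeloid and for neuronal genes and 33.3% for glial and for lens and pigment epithelium genes, the last 2 near the tissue-foreign share. Above the upper quartile stood 11.1% of myeloid, 5.56% of neuronal, 12.5% of glial and 22.2% of lens and pigment epithelium probe sets. That compares with 4.55% of tissue-foreign and 21.3% of all probe sets. The part of other cells in the collagen readings was not tested.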

How the data were processed

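The authors deposited linear intensity values in 3 tables, by array design. The sources used here do not state how probes were summarised or scaled, nor the software (not given in the sources used). The 7 zeros were replaced by the lowest value above 0 on the same array. Gene names came from GEO's platform annotation, with symbols updated through Entrez identifiers to RefSeq for GRCm38.p6 (29044 of 29131 single-symbol probe sets matched). Percentiles are ranks within an array. Log2 intensities minus the log2 floor (40th percentile) or upper quartile of the array were fitted per design with limma 3.58.1 in R 4.3.3 (intercept only, two-sided, Benjamini-Hochberg over all probe sets of the design). No control probe sets were in the tables. Tested on simulated data for design A (12422 probe sets), the fit called 93.0% of probe sets set 0.5 log2 units above the floor and 2.5% of those set at it. Members and gene lists were chosen with earlier results of these data known. The naming rule gives all readings of preset genes (Col1a1, Col1a2, Col3a1, Col5a1, Col5a2, Col6a1, Col6a2, Col15a1, Col18a1, Serpinh1, Lox, Plod1 to Plod3, P4ha1, P4ha2, Pcolce), of probe sets above the upper quartile and of the extremes of each class. Readings of further members and list genes were added after their values were seen. No set test was run. The number of arrays limits the precision.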

Additional observations from a re-analysis of the deposited data

How the results depend on the processing

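No paired analysis was possible because all arrays belong to a single condition, so there is no contrast to block on replicate number. A variance trend in limma, chosen after seeing the data, and the planned all-arrays rule, offset of 50, quantile normalization and filter at the 20th percentile kept each count of probe sets or members within 1.5 times its main value. The all-arrays rule raised the fibrillar members above the floor from 9 to 12 of 21. Under it, all probe sets above the floor rose from 6727 to 7034 on design A, 6707 to 6999 on B and 6402 to 6693 on C. The low fibrillar share thus depends on the calling rule. On design A the tissue-foreign level lowered the probe sets called above from 6727 to 4043 and the members from 24 to 13. Against it, values turned negative for Col15a1 (-0.16), Col18a1 (the weakest probe set, -0.56), Col1a1 (-0.17), Col3a1 (-0.66), Col5a1 (-0.76 and -0.42), P4ha2 (-0.42), Col4a4 (-0.32) and Col2a1 (-0.71). With the floor at the 50th percentile, Col18a1 (same probe set) and Col5a1 stood at -0.065 and -0.26, and network members above it fell from 2 to 1. Plain probe sets alone, which are fewer, gave 10 other chains above the floor and 3 above the upper quartile, and 5 members above the upper quartile on design A. The strongest probe set per gene put the median percentile of fibrillar chains at 55.4, other chains at 44.1 and enzymes at 70.9. Taken the same way, the median over all genes was 65.9. The mean per gene put network chains at 35.0 and enzymes at 54.0. Leaving out a replicate gave medians of 34.2 to 36.4 for network chains, 38.6 to 40.6 for other chains and 59.3 to 63.1 for enzymes. The cause of these shifts was not tested. Of 49 named probe sets, 37 kept direction and call against the floor under every alternative run for them. Calls against the upper quartile were not part of this count. Those of a Col18a1, a Col1a2 and a Col5a2 probe set changed when a replicate was left out. On the log2 scale, the class medians over the floor were 0.16 for fibrillar chains, -0.12 for network chains, -0.029 for other chains and 0.81 for enzymes, on the same side of the floor as their percentiles.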
